A study of Oryza sativa Japonica Group with 38 samples.

Results

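The loci described here are long noncoding RNAs (lncRNAs) of rice that carry an identifier of the Rice Annotation Project (RAP), have a single exon and are at least 600 nt long. They were chosen from the annotated list by identifier, by the exon number of the longest transcript and by exon length, taken as end minus start. The rule used no expression value. It found 403 members among 1873 RAP loci, 3722 loci of the annotated list and 7231 loci of both deposited lists. The annotated list also holds 1849 loci with EPlOSAG identifiers, and the second list holds 3509 assembled loci with XLOC identifiers.

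Libraries came from Oryza sativa, japonica, whose seedlings grew for 2 weeks under 12 h of light (28 °C) and 12 h of darkness (22 °C) a day. The stresses given to seedlings were cold at 4 °C, drought by air drying, heat at 50 °C, high light of 50000 lux and high salt with 300 mM NaCl. Roots, leaves and panicles without treatment were further conditions, and untreated seedlings were the control. From each of these 9 conditions came poly(A)+, poly(A)- and small RNA, all of whole cells, and nuclear total RNA. The 38 libraries gave 36 columns of values, since drought had 2 libraries each of poly(A)+ and poly(A)- RNA but 1 column of each. No source used here says whether a drought column holds 1 library or both. The lists hold noncoding loci only, so the labelled tissues could not be checked against marker genes. The labels place panicles on seedlings of 2 weeks as well, whereas the column headings call them young panicles.

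A lncRNA is a transcript with no recognised protein-coding capacity. Most are made by RNA polymerase II and then capped and polyadenylated, and in plants they have been tied to flowering time, fertility, nutrient supply and stress. Transcripts without a poly(A) tail are lost when RNA is captured with oligo(dT), and RNA kept in the nucleus is enriched by isolating nuclei. A locus can also be a precursor or a target of small RNAs, which plants use to cut transcripts and to direct DNA methylation. A locus of a single exon shows no splice junction. In strand-specific libraries such as these, its strand still rests on the orientation of the reads. The table of gene names used here held none of the 403 identifiers, so the members are called by their RAP identifiers and no function is given for any of them.

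Values are FPKM (fragments per kilobase of exon, scaled to the depth of the library), so levels can be compared between loci. Depth was read back from the values themselves, as FPKM times length proved to be a whole multiple of 1 read in every column. In 32 of the 36 columns both lists gave the same depth, of 24.6 to 105 M reads (M stands for mega) for 23 long RNA columns and 39.7 to 85.8 M reads for 9 small RNA columns. In the other 4 columns the lists held the same 4 depths under different headings. For example, 107 M reads stood under leaf poly(A)+ RNA in the annotated list and under panicle poly(A)+ RNA in the second list. No source used here says which list has the right headings, so these headings could not be trusted. As headed, the panicle nuclear column had 30 members at 1 FPKM, against at most 35 in the other nuclear columns. Over both lists it had 2826 loci at 1 FPKM, against at most 842. Which list is wrong was not tested. The 4 columns were poly(A)+ RNA of leaves and all long RNA of panicles, and they are left out unless named. The members' share of reads was 0.0345% to 0.136% in poly(A)+ libraries. Each condition and fraction had a single column, so single values carry 95% Poisson intervals, which cover counting error only and no replicate error.

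The members were mostly weakly expressed. Their exon length, which the rule bounds from below, had a median of 1145 nt and ranged up to 6499 nt, and 194 members lay on the plus strand and 209 on the minus strand. In long RNA 179 members (44.4%) had a library at 1 FPKM or more among the 23, against 58.6% of the 556 shorter single-exon RAP loci, 70.9% of RAP loci with several exons and 56.0% of both lists. Only 15 members were listed at 0 in all 23. At a floor of 0.1 FPKM, 290 members were detected.

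Poly(A)+ RNA held most of the members detected, as it did for both lists (3807 of 4050 detected loci). There 175 members (43.4%, against 52.6% of both lists) reached 1 FPKM in any of 7 libraries. All 7 libraries did so for 47 members (11.7%, against 15.4%). In poly(A)- RNA 56 members (13.9%, against 20.9%) reached 1 FPKM in any of 8 libraries. In all 8 it was 2 members, OS12G0136500 and OS01G0185350 (0.496%, against 1.40%). In nuclear RNA the numbers were 44 members in any of 8 libraries and a single one, OS12G0136500, in all 8. The library with the most members at 1 FPKM was untreated seedlings in poly(A)+ RNA with 131, high salt in poly(A)- RNA with 40 and leaves in nuclear RNA with 35. The same libraries led for both lists, with 2873, 1081 and 842 loci.

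**Figure D1:**
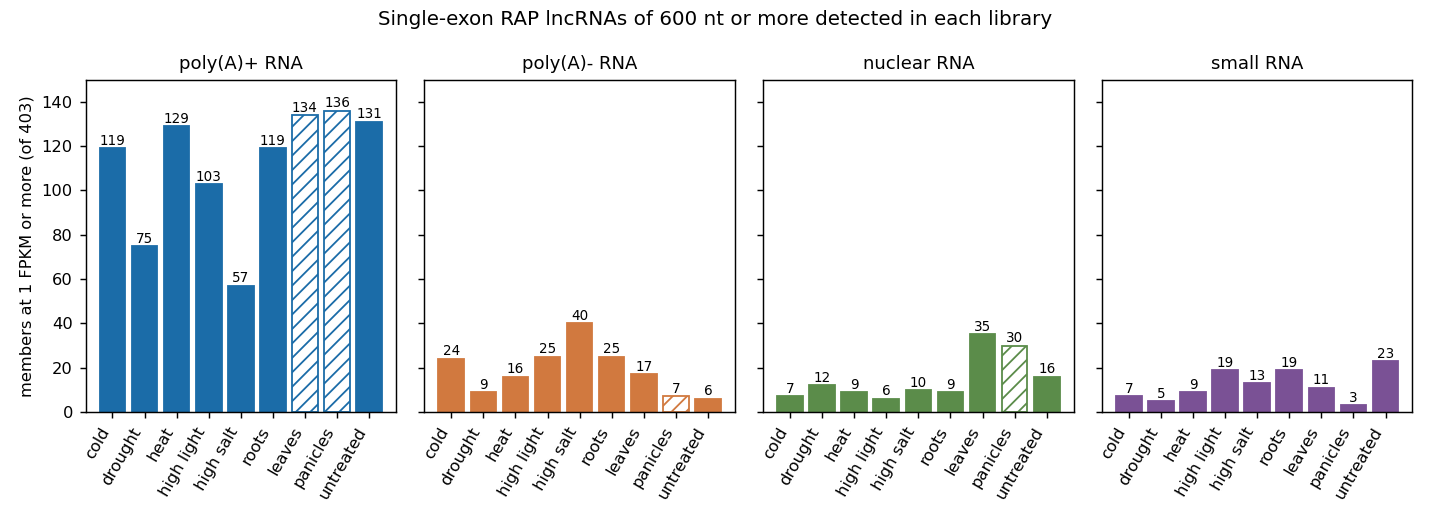
Number of the 403 members at 1 FPKM or more in each column (vertical axis), by condition (horizontal axis) and RNA fraction (panel). Hatched bars are the 4 columns whose headings could not be trusted. Poly(A)+ RNA runs from 57 members under high salt to 131 in untreated seedlings, and no poly(A)- or nuclear column exceeds 40.

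The authors' own classes, deposited with the list, sort the loci once by poly(A) tail and once by location. By tail they put 245 members (60.8%) in the poly(A)+ class, 112 in a class named bimorphic, 6 in the poly(A)- class and 40 in a class of low FPKM. By location 258 members (64.0%) were classed as cytosolic, 56 as bimorphic, 41 as nuclear and 48 as low. The cytosolic share was 73.6% among shorter single-exon RAP loci and 87.2% among RAP loci with several exons. The 40 members of low class were long, with a median of 1549.5 nt, against 1040 nt in the poly(A)+ class. No source used here states the rules behind the classes.

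In long RNA the longest members were the least often detected. The share of members at 1 FPKM was 44.8% for 600 to 799 nt, 53.9% for 800 to 1199 nt, 42.6% for 1200 to 1999 nt and 36.4% for 2000 nt and more. In small RNA it was 3.20%, 8.99%, 8.91% and 10.2% in the same bins. The longest member, OS08G0249750 with 6499 nt (chromosome 8, 9138739 to 9145238, minus strand), had at most 0.00498 FPKM in poly(A)+ RNA and 0.0178 FPKM in nuclear RNA. The next, OS11G0490850 with 5841 nt, reached 1.64 FPKM in poly(A)+ RNA and 1.29 FPKM in small RNA, both in roots. OS03G0685200 with 5763 nt stayed at or below 0.167 FPKM in every fraction.

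The 600 nt border divides the list by length alone, and loci on both sides are given as a description. Just inside it, OS05G0594001 (600 nt), OS06G0265950 and OS07G0115650 (601 nt each) reached 0.411, 0.332 and 0.0651 FPKM at most in poly(A)+ RNA. Just outside it, OS10G0205400 (599 nt), OS02G0718100 and OS08G0229200 (597 nt each) reached 16.02, 46.9 and 20.9 FPKM. The 3 loci on the short side were thus the higher ones.

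**Figure D2:**
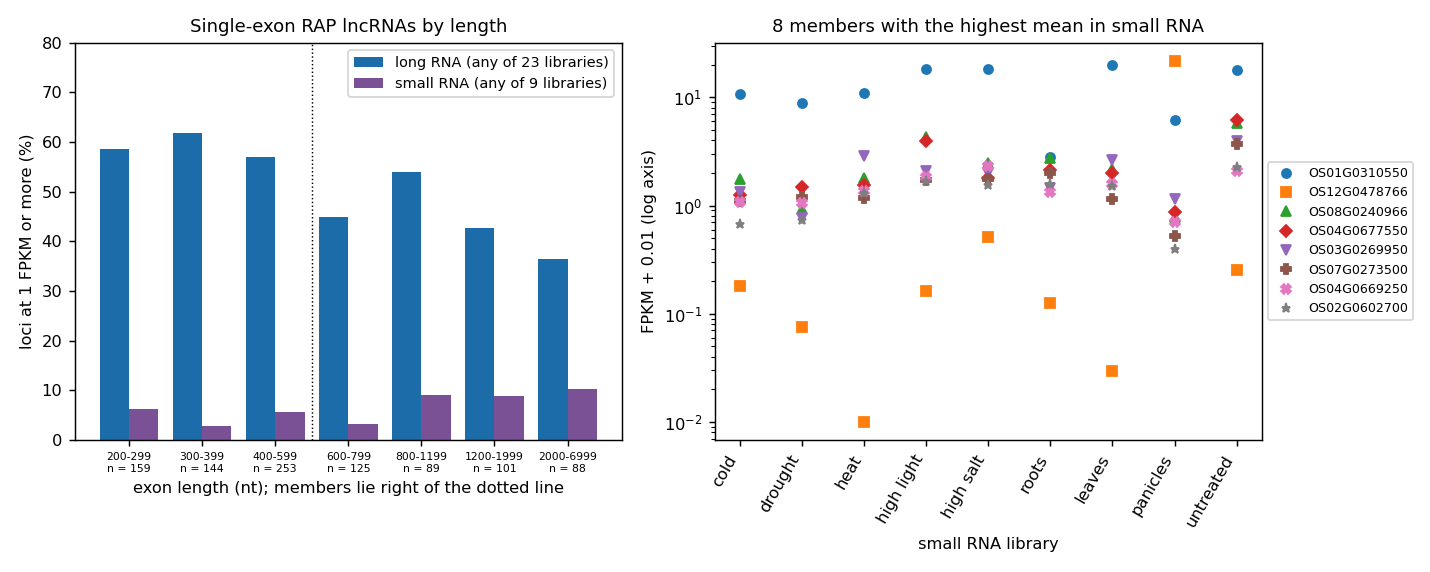
Left, share of single-exon RAP lncRNAs (vertical axis, percent) at 1 FPKM or more in any of 23 long RNA libraries and any of 9 small RNA libraries, by exon length; the number of loci stands under each bin. Right, the 8 members with the highest mean in small RNA, by library, on a log axis of FPKM plus 0.01: OS01G0310550 leads in 8 of 9 libraries and OS12G0478766 in panicles.

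A few members carried much of the signal. OS06G0318800, a locus of 603 nt on chromosome 6 (12359509 to 12360112, minus strand), had the highest mean in poly(A)+ RNA, 137 FPKM. Its level there was 54.4 FPKM in cold, 298 in drought, 11.4 in heat, 85.2 in high light, 25.02 in high salt, 118 in roots and 364 in untreated seedlings. It was highest without treatment and lowest in heat. It made up 28.8% of the members' summed FPKM in untreated poly(A)+ RNA.

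Behind it came OS01G0559900 (614 nt, chromosome 1, 21261804 to 21262418, plus strand) with a mean of 48.2 FPKM, and OS12G0136500 (1996 nt, chromosome 12, 1772559 to 1774555, minus strand) with 47.9 FPKM. OS01G0559900 lay between 20.7 and 82.8 FPKM in poly(A)+ RNA with a median of 41.4. OS12G0136500 spread wider, between 2.42 and 200 FPKM with a median of 20.1. OS01G0185350 (1033 nt, chromosome 1, 4531621 to 4532654, minus strand) and OS04G0460900 (607 nt, chromosome 4, 23004694 to 23005301, minus strand) had means of 45.4 and 33.9 FPKM. These 5 members also led poly(A)- RNA, with means between 3.74 and 9.71 FPKM.

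Among the 175 members at 1 FPKM in poly(A)+ RNA, the library with the most signal held a median of 30.6% of a member's summed FPKM over the 7 libraries, against 31.97% for the 3807 loci of both lists at that level. In 26 members (14.9%) it held more than 50%, against 15.6% of those loci. The peak fell in roots for 47 members (26.9%, against 27.1% of those loci), in heat for 46 (26.3%, against 21.5%) and in untreated seedlings for 29 (16.6%, against 18.8%). It fell in high salt for a single one (0.571%, against 2.42%).

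In 4 members 1 library held more than 80% of the signal, among them OS07G0675166, OS08G0105450 and OS01G0137800, which were picked out after their values were seen. OS07G0675166 (1360 nt, chromosome 7) had 2.56 FPKM in drought, where the 95% interval was 2.22 to 2.94, and at most 0.00959 FPKM in the other 6 libraries. OS08G0105450 (1528 nt, chromosome 8) had 4.39 FPKM in roots and at most 0.114 FPKM elsewhere in poly(A)+ RNA. OS01G0137800 (4939 nt, chromosome 1) had 4.56 FPKM in heat and at most 0.260 FPKM elsewhere. Each of these members was thus seen at 1 FPKM in a single poly(A)+ library, and 36 members were seen so in all.

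Whole cell poly(A)- RNA was set against poly(A)+ RNA over the 7 conditions with trusted columns (the 5 stresses, roots and untreated seedlings). The test was limma on log2(FPKM + 1), with each condition as its own block. A call needed a Benjamini-Hochberg adjusted p under 0.05 and 2-fold or more. Members fell in poly(A)- RNA: 85 of the 124 that passed a filter of 1 FPKM in 3 libraries were called lower and 0 higher, and 71 of the 85 were lower in all 7 conditions. Over all 2859 loci tested 74.5% were called lower and 4.20% higher. At an unadjusted p under 0.05, 118 members were lower and 0 higher, while 2756 of the 2859 loci differed in either direction. The members' median difference was -1.37 on the log2 scale, against -1.51 for all loci tested.

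That filter let most members in through poly(A)+ RNA. Of the 124, 77 had no poly(A)- library at 1 FPKM, so they had to differ, and their count is no support for a loss of poly(A)- signal. The other 279 members did not pass. Since nearly the whole list shifted, differences were also taken relative to each library's median, a choice that removes the shift. Then 12 members were called lower and 8 higher, against 16.5% and 8.57% of all loci tested. The 12 were all among the 85. The labels name no replicate cultures, and the conditions, which are not replicates of each other, served as the repeats of a fraction. The p-values thus rest on the spread of the samples at hand, part of which may be technical. The fit also pooled variance over the loci tested. This gave 187 degrees of freedom, against 6 from the locus itself, so each SE and p came mostly from other loci. For nuclear RNA it was 23.4 against 6 (over poly(A)+) and 137 against 7 (over poly(A)-).

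The members with the largest differences were among the highest in poly(A)+ RNA. They had to be, since with 1 added to each FPKM a member low in both fractions cannot differ by much. OS01G0185350 lay between 1.26 and 6.30 FPKM in poly(A)- RNA (median 3.27, 8 libraries), against 13.2 to 124 FPKM in poly(A)+ RNA (median 35.8, 7 libraries). The 2 ranges did not overlap. The difference was -3.05 ± 0.44 on the log2 scale (SE), lower in 7 of 7 conditions, with a limma adjusted p of 3.9e-10. OS04G0596350 (805 nt, chromosome 4, 30077753 to 30078558, plus strand) lay between 0.167 and 2.94 FPKM, against 4.22 to 30.1 FPKM, again with no overlap and a difference of -2.97 ± 0.39.

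OS01G0559900 lay between 0 and 22.8 FPKM in poly(A)- RNA, against 20.7 to 82.8 FPKM in poly(A)+ RNA. Here the high light poly(A)- library (22.8 FPKM) overlapped the lowest poly(A)+ library, heat. Its difference was -2.86 ± 0.46, and OS01G0322700, OS09G0508401 and OS04G0460900 followed with -2.85 ± 0.40, -2.84 ± 0.40 and -2.78 ± 0.44. All of them were lower in 7 of 7 conditions. OS06G0318800 had a still larger difference of -3.16 ± 0.50 but was lower in only 6 of 7 conditions. In heat its poly(A)- level of 21.1 FPKM (95% interval 19.5 to 22.8) stood above its poly(A)+ level of 11.4 FPKM (10.4 to 12.4).

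Read counts let more members below 1 FPKM be tested, because a long locus gathers reads at a low FPKM. In a voom fit on the recovered reads with a floor of 50 reads in all, added after the data were seen, 271 members were tested. Of these 215 were called lower in poly(A)- RNA and 4 higher, against 86.9% and 4.72% of 4382 loci. The floor counts reads of both fractions together. In untreated seedlings the members had 101349 reads in poly(A)+ RNA, against 4029 in poly(A)- RNA. This floor, too, thus favoured members high in poly(A)+ RNA, and the count of 215 is no support for a loss. The 4 higher ones were OS10G0213966, OS12G0429300, OS02G0469250 and OS03G0284200. OS10G0213966 (3353 nt, chromosome 10, 7982715 to 7986068, plus strand) led with a log2 difference of 4.25 ± 0.78 and an adjusted p of 1.5e-07. Its levels were low throughout, between 0.0148 and 0.375 FPKM in poly(A)- RNA, against at most 0.0289 FPKM in poly(A)+ RNA.

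Nuclear RNA against poly(A)+ RNA gave a like result over the same 7 conditions. By the labels nuclear RNA was total RNA and poly(A)+ RNA came from whole cells. Location and poly(A) selection thus cannot be told apart in this comparison. Of 123 members tested, limma called 87 lower in nuclear RNA and 0 higher, and 79 of the 87 were lower in all 7 conditions. At an unadjusted p under 0.05, 119 were lower and 0 higher, while 2690 of the 2786 loci tested differed in either direction. Voom on the same members called 119 lower and 0 higher, with no count taken over all loci. In the limma fit 79.2% of the 2786 loci were called lower and 1.26% higher. The median difference was -1.49, against -1.69 for all loci tested. For 100 of the 123 no nuclear library reached 1 FPKM, so these too passed through poly(A)+ RNA alone. Relative to each library's median 13 members were called lower and 17 higher, against 19.2% and 10.3% of all loci tested.

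OS06G0318800 had the largest difference. It lay between 0.472 and 3.897 FPKM in nuclear RNA (median 2.11), against 11.4 to 364 FPKM in poly(A)+ RNA (median 85.2), without overlap. The difference was -4.94 ± 0.47, lower in 7 of 7 conditions, with a limma adjusted p of 3.04e-10. OS01G0559900, OS04G0460900, OS01G0185350, OS02G0750200 and OS01G0322700 followed with -4.72 ± 0.36, -4.40 ± 0.38, -4.02 ± 0.39, -3.46 ± 0.39 and -3.45 ± 0.42. Each was lower in 7 of 7 conditions.

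Several members did not follow. OS08G0160700, OS06G0644400, OS02G0716600 and OS03G0740900 had nuclear minus poly(A)+ differences of 0.41, 0.13, 0.11 and 0.03 with adjusted p between 0.163 and 0.911, so none passed. Relative to each library's median they were called higher, with adjusted differences of 2.18, 1.90, 1.88 and 1.80. Centring raises every locus by the same amount, and with 1 added to each FPKM a low member cannot fall that far. The poly(A)+ means of OS08G0160700, OS02G0716600 and OS03G0740900 were only 0.631, 0.631 and 0.880 FPKM. These calls are thus no support for enrichment in nuclear RNA. OS08G0160700 (935 nt) had a median of 1.14 FPKM in nuclear RNA, against 0.522 FPKM in poly(A)+ RNA, and the 2 ranges overlapped. In the voom fit with a floor of 50 reads 219 of 258 members were called lower in nuclear RNA and 1 higher, OS12G0236200, against 87.2% and 2.73% of 4329 loci. Here as well the floor favoured members high in poly(A)+ RNA.

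**Figure D3:**
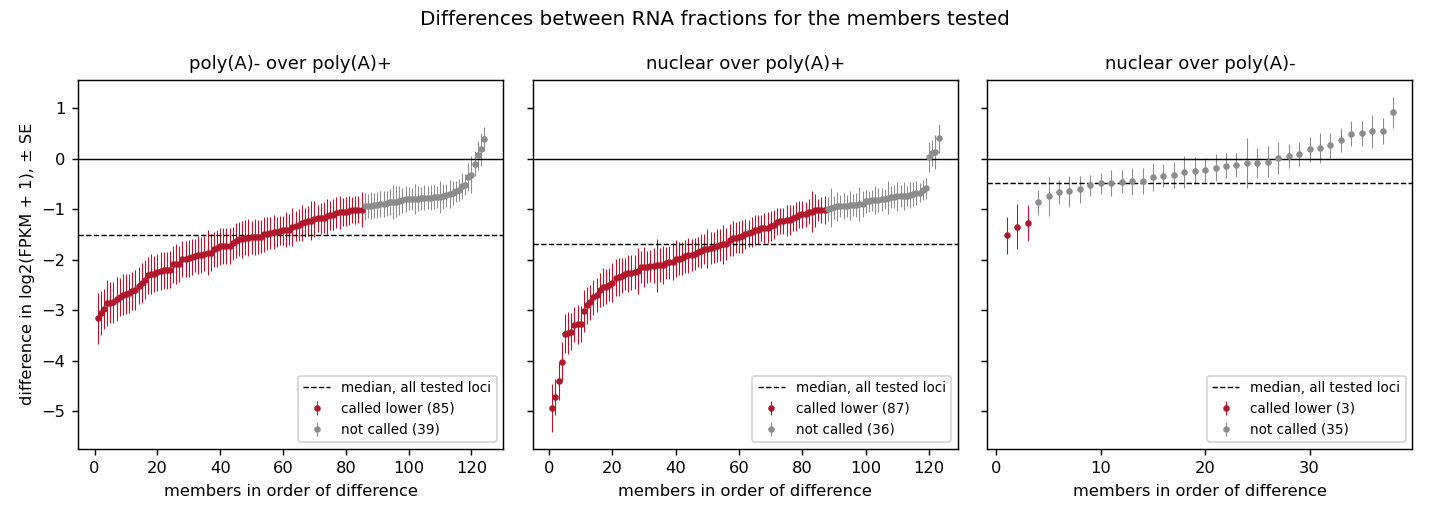
Difference in log2(FPKM + 1) between fractions (vertical axis, points with SE bars) for each member tested, in order of size (horizontal axis). Red points were called lower, grey points were not called, and the dashed line is the median of all loci tested. In the first panels 85 of 124 and 87 of 123 members were called lower, and in the last 3 of 38.

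Averaged over conditions, nuclear and poly(A)- RNA differed little for these members, while single conditions differed in both directions. Over 8 conditions (leaves added) 38 members were tested, and limma called 3 lower in nuclear RNA and 0 higher, against 16.8% and 0.938% of 959 loci. At an unadjusted p under 0.05, 10 were lower and 3 higher, while 492 of the 959 loci differed in either direction. Voom on the same 38 called 7 lower and 2 higher, with no count taken over all loci. The median limma difference was -0.23, against -0.48 for all loci tested. Of the 38, 25 had fewer than 3 nuclear libraries at 1 FPKM and 12 had fewer than 3 poly(A)- libraries. The other 365 members did not pass the filter. Relative to each library's median 1 member was called in each direction, OS01G0559900 lower and OS05G0528701 higher, against 7.61% and 3.96% of the loci.

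The 3 lower ones were OS01G0559900 (-1.51 ± 0.36, limma adjusted p = 5.79e-04), OS06G0318800 (-1.34 ± 0.45, adjusted p = 0.0131) and OS04G0460900 (-1.27 ± 0.35, adjusted p = 0.00258). None was lower in all 8 conditions: 7, 7 and 6 of 8 were. Without high light 1 member was still called lower, and with the doubtful columns as headed 0 were, so the call rests on few libraries.

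The difference moved with the condition. The median nuclear minus poly(A)- difference of the 38 members was -0.93 in high salt, -0.67 in high light, -0.51 in cold, -0.49 in roots, -0.11 in heat and 0.18 in drought. It was 0.73 in leaves and 0.11 in untreated seedlings. For all loci tested high salt and leaves were also the lowest and the highest, with medians of -1.13 and 0.35. Leaves had 32 of the 38 members higher in nuclear RNA.

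The leaf nuclear library held the highest nuclear values of the list. OS05G0528701 (1409 nt, chromosome 5, 26274952 to 26276361, plus strand) had 32.0005 FPKM there (95% interval 31.05 to 32.97). In the other nuclear libraries it had 0.918 FPKM in cold, 0.914 in drought, 0.233 in heat, 0.6625 in high light, 0.351 in high salt, 5.83 in roots and 0.981 in untreated seedlings. Leaves stood above all of them, with roots next. In leaf poly(A)- RNA the same locus had 0.557 FPKM.

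OS12G0236200 (1018 nt, chromosome 12, 7451683 to 7452701, minus strand) had 29.8 FPKM in leaf nuclear RNA (28.7 to 30.9), 2.81 FPKM in root nuclear RNA and at most 0.854 FPKM in the other 6. It was high in leaf poly(A)- RNA as well, with 6.92 FPKM, and had 1.18 FPKM at most in poly(A)+ RNA. OS12G0124300 (1741 nt, chromosome 12, 1170641 to 1172382, plus strand), 1 of 6 members in the authors' poly(A)- class, had 15.4 FPKM in leaf nuclear RNA (14.8 to 16.01). Its other nuclear libraries stayed at or below 0.392 FPKM, while root poly(A)- RNA had 7.15 FPKM.

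OS03G0740900, OS07G0608450, OS07G0168700 and OS03G0741050 also had their nuclear maximum in leaves, with 9.44, 7.44, 6.57 and 6.42 FPKM. In all, 11 members had a nuclear maximum of at least 1 FPKM that stood above their poly(A)+ maximum. The maxima were over 8 nuclear and 7 poly(A)+ libraries, and no such count was made for all loci. That count lacks leaf poly(A)+ RNA, whose column was doubtful: as headed it gave OS12G0236200 10.2 FPKM and OS03G0740900 10.6 FPKM. The leaf nuclear library had 842 loci of both lists at 1 FPKM, against 197 to 382 in the other trusted nuclear libraries, so higher levels there were a feature of the whole list. It was 94.9 M reads deep, against 24.6 M for untreated nuclear RNA, the shallowest library. The median difference between leaves and untreated seedlings in nuclear RNA was 1.07 for the 40 members at 1 FPKM in either library and 0.81 for all 967 such loci. Of these members 35 were at 1 FPKM in leaves and 16 in untreated seedlings, so the filter favoured those high in leaves.

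**Figure D4:**
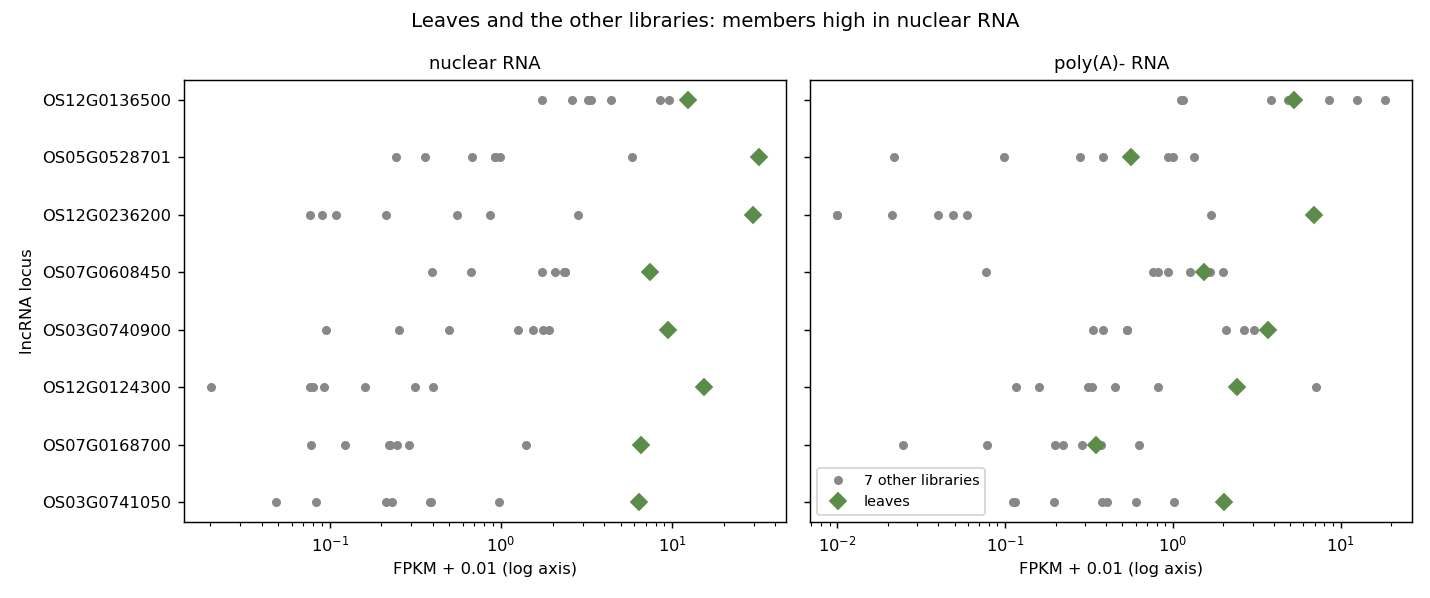
Level of 8 members high in nuclear RNA (FPKM plus 0.01, log axis), in nuclear RNA (left) and poly(A)- RNA (right). Green diamonds are leaves and grey points the 7 other libraries. In nuclear RNA leaves are the highest point of each of the 8 members. The members were chosen by a high nuclear mean or maximum, to which leaves added much, so that order is no separate result.

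Stressed seedlings were compared with untreated ones, which asks which lncRNAs respond to stress. With 1 column per group there is no test. A locus was counted as higher or lower at a difference of at least 2-fold in log2(FPKM + 1), with at least 1 FPKM in either library. Counts are given as deposited and again relative to the median difference of all loci. All 5 comparisons share the untreated library, so a locus high there tends to be lower in all of them.

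In heat members differed in both directions. Of 156 members compared, 23 were higher and 25 lower in heat than in untreated seedlings, against 12.6% and 16.1% of 3353 loci. Relative to the median the counts were again 23 and 25, against 13.2% and 15.8%. OS12G0136500 had 200 FPKM in heat (197.9 to 202.4), against 27.5 FPKM in untreated seedlings (26.7 to 28.3), a 7.28-fold ratio. OS08G0192001 (607 nt, chromosome 8) had 27.4 FPKM in heat, against 4.05 FPKM untreated, and OS08G0526633 (710 nt, chromosome 8) had 9.03 FPKM, against 1.42 FPKM. Heat was the peak of OS08G0526633, which was at or below 0.706 FPKM in the other 4 stresses and in roots.

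On the lower side OS06G0318800 had 11.4 FPKM in heat (10.4 to 12.4), against 364 FPKM untreated (358 to 369), a 32.1-fold lower level. OS04G0496950 (3647 nt, chromosome 4, 24855427 to 24859074, plus strand) had 0.811 FPKM in heat (0.709 to 0.924), against 52.2 FPKM untreated (51.4 to 53.1), 64.3-fold lower. OS01G0757301 (841 nt, chromosome 1) had 1.01 FPKM, against 15.15 FPKM. In poly(A)- RNA OS06G0318800 went the other way, with 21.1 FPKM in heat, against 10.7 FPKM untreated, while nuclear RNA had 2.18 FPKM in heat, against 3.17 FPKM untreated.

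In drought 9 of 135 members were higher and 55 lower, against 7.13% and 51.4% of 3030 loci. The median of all these loci was lower in drought by 1.02 on the log2 scale. Relative to that median 39 members were higher and 11 lower, against 20.1% and 13.9%. With a median that low, higher in this sense meant little or no fall. As deposited only 38 of the 135 members were above their untreated level at all. The 9 higher and 11 lower members were counted both ways. OS03G0242350 (1002 nt, chromosome 3, 7520303 to 7521305, plus strand) had 28.1 FPKM in drought (26.8 to 29.5), against 2.33 FPKM untreated (2.00 to 2.70), a 12.1-fold ratio. OS03G0269950 (823 nt, chromosome 3) had 35.6 FPKM, against 5.09 FPKM, and OS01G0104350 (628 nt, chromosome 1) had 20.55 FPKM, against 4.49 FPKM.

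OS05G0229000 (698 nt, chromosome 5) had 0.341 FPKM in drought from 14 reads (0.186 to 0.571), against 11.4 FPKM untreated. OS12G0136500 had 2.42 FPKM in drought, against 27.5 FPKM, and OS05G0585450 (1648 nt, chromosome 5) had 0.289 FPKM, against 9.06 FPKM. OS12G0136500 was thus higher in heat and lower in drought than in the same untreated library. Its nuclear level in drought was 8.47 FPKM, against 3.36 FPKM untreated.

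In high salt the median of all loci was lower by 1.17 on the log2 scale, and 1 member was higher and 80 of 132 were lower, against 4.20% and 61.4% of 2977 loci. Relative to the median 8 were higher and 13 lower, against 11% and 11.9%. Here too higher meant little or no fall, and as deposited only 8 of the 132 were above their untreated level at all. The single member higher both ways was OS11G0634350, with 2.08 FPKM in high salt, against 0.305 FPKM untreated. OS04G0496950 had 1.76 FPKM, against 52.2 FPKM, 29.7-fold lower. OS06G0318800 had 25.02 FPKM, against 364 FPKM, and OS09G0336600 (670 nt, chromosome 9) had 0.459 FPKM from 19 reads, against 12.9 FPKM.

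High salt was also the condition with the most members in poly(A)- RNA, 40 at 1 FPKM, against 6 in untreated seedlings. Most of these members were thus at 1 FPKM in the high salt library alone, so no count or median of their differences is given. The median poly(A)- minus poly(A)+ difference of the 124 members was -0.25 in high salt, the nearest to 0 of the 7 conditions, against -1.85 in untreated seedlings. For all loci tested it was -0.43 in high salt and -2.16 in untreated seedlings.

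In cold 7 of 147 members were higher and 18 lower, against 6.06% and 15.2% of 3134 loci, and relative to the median 11 and 16, against 8.74% and 11.5%. OS01G0322700 (971 nt, chromosome 1, 12301585 to 12302556, plus strand) had 75.7 FPKM in cold (74.0 to 77.5), against 27.9 FPKM untreated (26.7 to 29.1). OS05G0528701 had 6.69 FPKM, against 1.96 FPKM, and OS04G0596350 had 25.6 FPKM, against 9.56 FPKM. On the lower side OS06G0318800 had 54.4 FPKM, against 364 FPKM, OS04G0496950 had 7.13 FPKM, against 52.2 FPKM, and OS05G0149450 (806 nt, chromosome 5) had 2.84 FPKM, against 23.9 FPKM.

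In high light 5 of 141 members were higher and 22 lower, against 6.35% and 18% of 3103 loci. Relative to the median 10 were higher and 18 lower, against 9.67% and 12.9%. OS04G0596350 had 30.1 FPKM in high light, against 9.56 FPKM untreated, and OS07G0587450 (1399 nt, chromosome 7) had 31.6 FPKM, against 11.2 FPKM. OS05G0528701 had 5.19 FPKM, against 1.96 FPKM. OS04G0496950 had 6.56 FPKM, against 52.2 FPKM, OS09G0336600 had 1.89 FPKM, against 12.9 FPKM, and OS09G0478733 (611 nt, chromosome 9) had 3.27 FPKM, against 19.2 FPKM.

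Across the 5 stresses OS05G0528701 was higher in 3, namely cold, heat and high light, counted both ways. OS04G0496950 and OS06G0318800 were each lower in 4, every stress but drought, where they had 56.3 and 298 FPKM, against 52.2 and 364 FPKM untreated. OS03G0230000 and OS11G0104966 were lower in all 5, with at most 0.891 and 0.467 FPKM under stress, against 5.78 and 5.37 FPKM untreated. OS09G0478733 had 61.1 FPKM in drought, above its 19.2 FPKM untreated, and was lower in the other 4. No member was past 2-fold to the same side in all 3 long fractions of a stress. Few could be, since only 16 to 18 members had 1 FPKM in either nuclear library of a stress comparison.

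**Figure D5:**
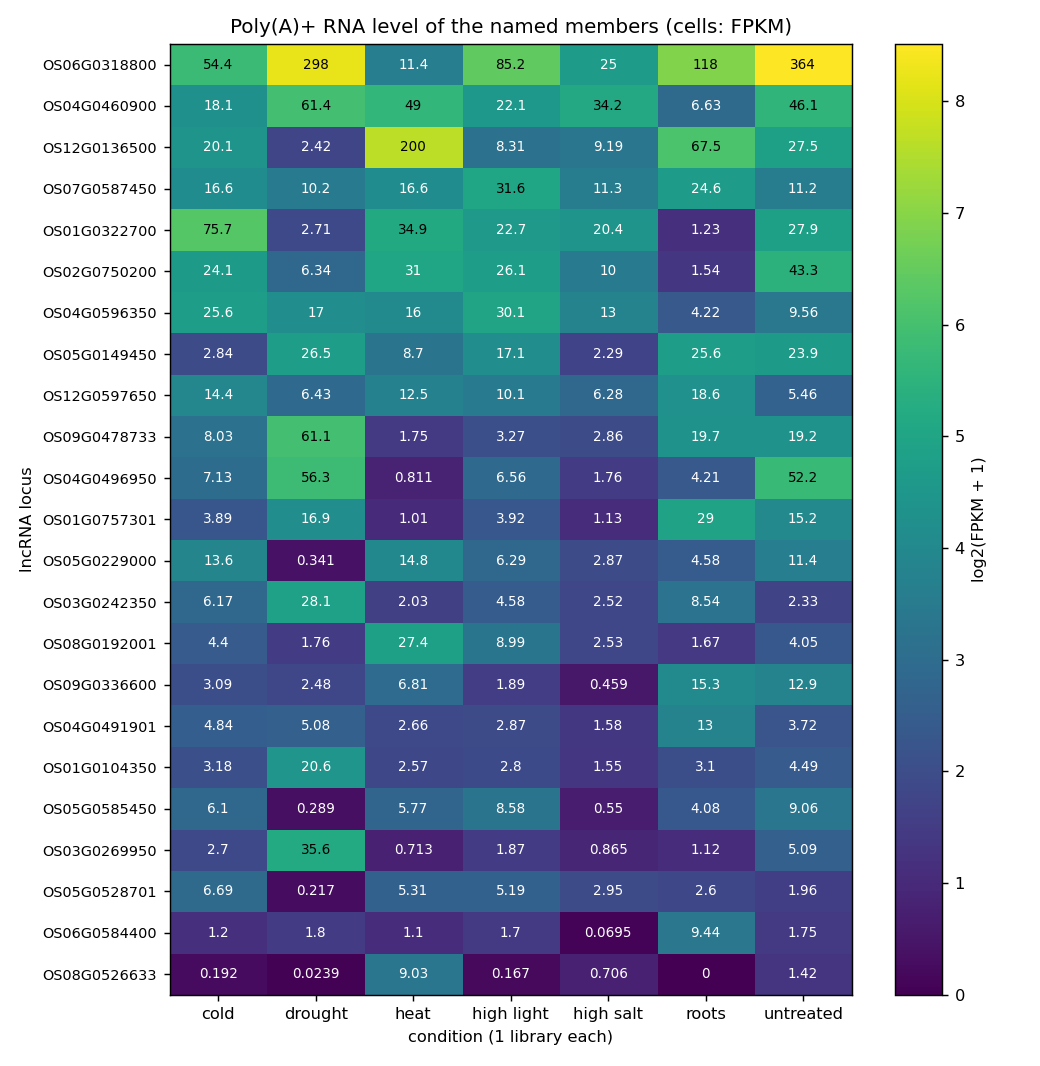
Poly(A)+ RNA level of the members named for a stress or for roots, by condition (columns, 1 library each). Colour is log2(FPKM + 1), numbers are FPKM, and rows are ordered by mean level. OS06G0318800 and OS04G0496950 are low in cold, heat, high light and high salt and near the untreated level in drought.

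Roots were set against untreated seedlings by the same size rule. In poly(A)+ RNA 21 of 151 members were higher in roots and 23 lower, against 15.7% and 18.2% of 3276 loci, and relative to the median 15 and 31, against 13.3% and 19.9%. OS06G0584400 (698 nt, chromosome 6) had 9.44 FPKM in roots (8.75 to 10.2), against 1.75 FPKM in seedlings (1.41 to 2.15). OS12G0597650 (1823 nt, chromosome 12) had 18.6 FPKM, against 5.46 FPKM, and OS04G0491901 (1137 nt, chromosome 4) had 12.98 FPKM, against 3.72 FPKM. OS03G0242350, the leading member of drought, had 8.54 FPKM in roots as well, against 2.33 FPKM.

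On the lower side of roots OS02G0750200 (742 nt, chromosome 2, 31527787 to 31528529, plus strand) had 1.54 FPKM in roots (1.27 to 1.84), against 43.3 FPKM in seedlings (41.6 to 45.1), 28.2-fold lower. OS01G0322700 had 1.23 FPKM, against 27.9 FPKM, and was listed at 0 in root nuclear and root poly(A)- RNA. OS04G0496950 had 4.21 FPKM, against 52.2 FPKM, and OS04G0460900 had 6.63 FPKM, against 46.1 FPKM. OS04G0460900 was also low in root poly(A)- RNA, with 0.138 FPKM, against 4.43 FPKM in seedlings.

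Small RNA was found at few members. At 1 FPKM in at least 1 of 9 libraries there were 30 members (7.44%), against 5.04% of shorter single-exon RAP loci, 51.6% of EPlOSAG loci and 18.9% of both lists. Of the 30, 21 stayed under 1 FPKM in all 23 long RNA libraries, and 9 were detected in both. Neither kind reached 1 FPKM at 203 members (50.4%). In the low class 5 of 40 members (12.5%) had small RNA at this level, against 15 of 245 (6.12%) in the poly(A)+ class.

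OS01G0310550 (1160 nt, chromosome 1, 11665734 to 11666894, minus strand) led 8 of the 9 small RNA libraries and was the only member at 1 FPKM in all 9. It had 10.7 FPKM in cold, 8.79 in drought, 10.9 in heat, 18.4 in high light, 18.2 in high salt, 2.79 in roots, 19.96 in leaves, 6.14 in panicles and 17.9 in untreated seedlings. Leaves were highest and roots lowest, at 2.79 FPKM (2.37 to 3.26), against 17.9 FPKM in seedlings (16.7 to 19.2). Its poly(A)+ level did not share that order: it was 10.002 FPKM in roots, against 9.64 FPKM in seedlings. In drought poly(A)+ RNA had 0.878 FPKM.

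OS12G0478766 (717 nt, chromosome 12, 17501252 to 17501969, minus strand) had 21.8 FPKM in panicle small RNA (20.4 to 23.3) and at most 0.505 FPKM in the other 8. It was listed at 0 in all 23 long RNA libraries and made up 40.2% of the members' summed FPKM in panicle small RNA. OS08G0240966 and OS04G0677550 had 5.80 and 6.17 FPKM in untreated seedlings, their highest small RNA library, and at most 0.0449 and 0.0148 FPKM in long RNA. OS03G0269950, high in drought poly(A)+ RNA, had its lowest small RNA level in drought, 0.751 FPKM, against 3.92 FPKM untreated. Over all 1093 loci compared the median was also lower in drought small RNA, by 0.87 on the log2 scale.

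Overlap with other listed loci was rare. Of the 403 members 7 overlapped a listed locus on the opposite strand and 2 on the same strand. The members of opposite strand with the highest mean level over long RNA were OS01G0683500, OS06G0274600, OS02G0452601, OS01G0678950 and OS04G0394766, with poly(A)+ means of 0.414, 0.377, 0.0926, 0.272 and 0.177 FPKM. Their partners had poly(A)+ means of 0.166 FPKM for OS01G0683525, 1.36 for OS06G0274550, 5.71 for OS02G0452550, 1.33 for OS01G0678900 and 0.0440 for OS04G0394733. OS02G0452601 lay wholly within the span of OS02G0452550 over 654 nt and was below 1 FPKM except in leaf poly(A)- RNA, with 1.02 FPKM. No source used here says whether the authors' counting used strand, so reads of such a pair cannot be told apart with certainty.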

How the data were processed

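RNA of 9 conditions and 4 fractions was sequenced in 38 libraries. Per the labels' protocols, RNA was extracted with Trizol, depleted of ribosomal RNA with a plant kit and parted with oligo(dT) beads, and libraries were strand-specific (dUTP). DESeq2, TopHat2 and build IRGSP-1.0 are named, without role or version, per the submitters' processing notes. The authors deposited 2 tables with 36 columns of FPKM each. The headings give no unit, which was taken from the class named low FPKM and from the values. How reads were counted and multiple hits handled is not stated in the labels. Coordinates are as deposited, and no genome of this build was used.

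Whole reads were recovered as FPKM times length over the value of 1 read: 99490 of 99490 values up to 200 reads were whole within 0.05 reads. They were used for depth, for exact 95% Poisson intervals and in voom fits as an alternative; 402 of 403 members had whole reads. OS02G0804000 was the exception and has no interval. A listed 0 allows up to 3 reads.

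Fractions were compared with limma 3.58.1 (R 4.3.3) on log2(FPKM + 1) with a trended prior and condition as a block, over all loci of both lists with 3 or more tested libraries at 1 FPKM. The added 1 makes the differences of low loci look smaller. Called means an adjusted p under 0.05 and at least 2-fold. Stress and tissue comparisons had 1 column per group and used a size rule with no test. The fits were tested on simulated data.

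The members, lists and tests were chosen with earlier results of these data known. Members were named by rule: the 6 largest called differences of the same sign in every condition, the 3 largest per stress and direction (4 for roots) with at least 5 FPKM that hold with and without centring on the median, the 5 highest means per fraction, the 3 longest, the 3 at each side of 600 nt and up to 5 overlapping a locus of the other strand. Other named members were picked after their values were seen. Alternatives were another pseudocount, filter, centring, fit, list, length, fold and column set, and leaving out each condition.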

Additional observations from a re-analysis of the deposited data

How the results depend on the processing

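Counts for poly(A)- under poly(A)+ RNA (85 members lower, 0 higher) and nuclear under poly(A)+ RNA (87 lower, 0 higher) ranged from 79 to 95 and from 82 to 96 lower when each condition was left out, with 0 higher each time. A stricter filter gave 52 and 47 lower. Centring each library on its median gave 12 lower and 8 higher, and 13 lower and 17 higher. A floor of 50 reads with voom, chosen after seeing the data, gave 215 lower and 4 higher, and 219 lower and 1 higher; it included all of the 85 and 87. For poly(A)- RNA, 1 member was higher with a pseudocount of 0.1 and 1 with voom.

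For nuclear against poly(A)- RNA (3 lower, 0 higher) leaving out a condition gave 1 to 4 lower and 0 to 1 higher. It was 5 lower and 3 higher with a pseudocount of 0.1, 1 and 1 when centred, 7 and 2 with voom and 10 and 4 with the floor of 50 reads. Without a filter, and with the doubtful columns as headed, 0 were lower.

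With a pseudocount of 0.1, 17 members were higher and 31 lower in cold, 37 higher in heat, 9 higher and 47 lower in high light, and 33 higher and 43 lower in roots. At 4-fold cold had 0 higher and 6 lower, drought 2 higher and 11 lower, heat 4 higher and 6 lower, high light 0 higher and 5 lower, high salt 0 higher and 18 lower, and roots 1 higher and 7 lower. Relative to the median 11 were higher in cold, 39 higher and 11 lower in drought, 10 higher in high light, and 8 higher and 13 lower in high salt. At 0.1 FPKM 290 members were detected in long RNA and 156 in small RNA.

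In the fraction tests no named difference changed sign. Of 257 values under alternatives there, 247 kept their call and the other 10, all of nuclear against poly(A)- RNA, lost it. All 70 in the size comparisons stayed past 2-fold, but they had to. These members were named only if they passed with and without centring, and a pseudocount of 0.1 can only enlarge a ratio. The 70 are thus no support for these differences. Depth limits long members least: 3 reads are 0.0668 FPKM for OS06G0318800 and 0.0110 FPKM for OS04G0496950 in untreated poly(A)+ RNA.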

Other observations

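Members seldom lay close together: 13 of 403 had another member within 10000 nt. OS01G0867400 (minus strand) and OS01G0867450 (plus strand) were 1102 nt apart on chromosome 1, and their poly(A)+ levels moved differently. OS01G0867450 had 28.4 FPKM in drought, against 6.83 FPKM untreated, and OS01G0867400 had 4.83 FPKM, against 6.10 FPKM. OS03G0740900 and OS03G0741050 lay 1462 nt apart on the plus strand of chromosome 3. Both had their nuclear maximum in leaves, 9.44 and 6.42 FPKM, and both had more poly(A)- RNA in leaves, 3.71 and 2.00 FPKM, than in the other 7 trusted libraries. OS06G0318800, the highest member, lay 3784 nt from OS06G0318900 on the other strand, which reached at most 0.0257 FPKM in poly(A)+ RNA.

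The 4 doubtful columns belong in no comparison, and their values are given as headed. In the annotated list poly(A)+ RNA of leaves had 134 members at 1 FPKM and of panicles 136, and panicle poly(A)- and nuclear RNA had 7 and 30. OS06G0318800 had 58.3 FPKM under the leaf poly(A)+ heading and 6.30 FPKM under the panicle one. OS04G0496950 had 69.5 and 2.23 FPKM, and OS01G0322700 had 9.22 and 0.191 FPKM. OS12G0136500 had 18.4 FPKM and OS05G0528701 15.6 FPKM under the panicle nuclear heading.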
